A study of Gallus gallus with 5 samples.

Results

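Broad multi-summit regions are open chromatin regions of sorted embryonic chick (Gallus gallus) retinal cells. Their width, merged over 5 libraries, was at least 2000 bp, and every library had a listed interval overlapping them. That interval was often narrower than 2000 bp. There were 746 such regions among 79104 accessible regions in all, and among the 25495 regions on numbered chromosomes that were listed in all 5 libraries. They were chosen from the measured lists. In each library the unique intervals were ranked by the fold enrichment of their highest summit, the strongest 50000 were kept, and intervals of the 5 libraries that overlapped by at least 1 bp were merged into regions. A region was kept when it lay on a numbered chromosome, when its merged width was 2000 bp or more and when each library had at least 1 of its kept intervals overlapping it. The other 24749 regions that were listed in all 5 libraries on numbered chromosomes, under 2000 bp wide, are called the narrower shared regions. Width, the strength ranks that placed intervals among the strongest 50000 and presence in every library were thus used for the choice, and they, the covered share of the width and the ranks by population are given here as description, with no test.

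All cells came from chick retinas collected at embryonic day 5, given 2 plasmids by electroporation and kept in explant culture for 48 h. One plasmid carries GFP under ThrbCRM1, an enhancer from the gene for thyroid hormone receptor beta, and the other carries Cherry under the ubiquitous CAG promoter. Flow sorting gave a Cherry+/GFP+ population (ThrbCRM1+, called positive, 3 libraries) and a Cherry+/GFP- population (ThrbCRM1-, called negative, 2 libraries). Every cell in both groups had therefore taken up plasmid, and the negative group holds all electroporated cells without detected reporter, a mixture of retinal cell types. The labels do not say how many embryos went into a library or whether the libraries came from separate cultures, so p-values measure only the spread between these libraries.

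In ATAC-seq the Tn5 transposase inserts adapters where DNA is free of nucleosomes, and a summit is the base at which the pile-up of such insertions is locally highest. Most accessible elements, such as an enhancer or a simple promoter, open a stretch that gives a single summit or a few. Broad stretches with many summits are known from CpG-rich promoters and from dense groups of enhancers, in which several transcription factor binding sites lie side by side. In the developing retina, ThrbCRM1 marks restricted progenitors that give rise to cones and horizontal cells, and the homeodomain factors Otx2 and Onecut1 are known to act on it. No genome sequence or gene annotation of the build of the lists was used here, so the regions are named by position and no gene, promoter or motif is assigned to them.

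The 5 lists held 99859 to 155087 rows, 1 row for each summit, and 71596 to 104902 unique intervals. The lists give no read counts, so sequencing depth is unknown. Negative replicate 2 stood apart with the longest list and with the highest fold enrichment at rank 50000 (3.22, against 2.67 to 2.97 in the other libraries). The peak names carry library names of 2 styles. Replicate 1 of each group has the first style and the other 3 libraries have the second, so each style holds libraries of both groups.

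The 746 broad regions had a median width of 2232 bp and reached 4302 bp. Widths of 2000 to 2499 bp were found in 572 regions, widths of 2500 to 2999 bp in 135, and widths of 3000 bp or more in 39. Together they covered 1.74 Mb. They made up 2.93% of the regions listed in all 5 libraries and 7.06% of the base pairs of those regions, whose narrower members had a median width of 867 bp. The narrowest 3 members were exactly 2000 bp wide, on chromosomes 1, 12 and 8, and held 3 to 7 summits in each library. The 3 regions just outside, 1 or 2 bp short of the limit on chromosomes 1, 15 and 24, held 2 to 11 summits, so the width limit cuts through a continuous distribution.

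**Figure D1:**
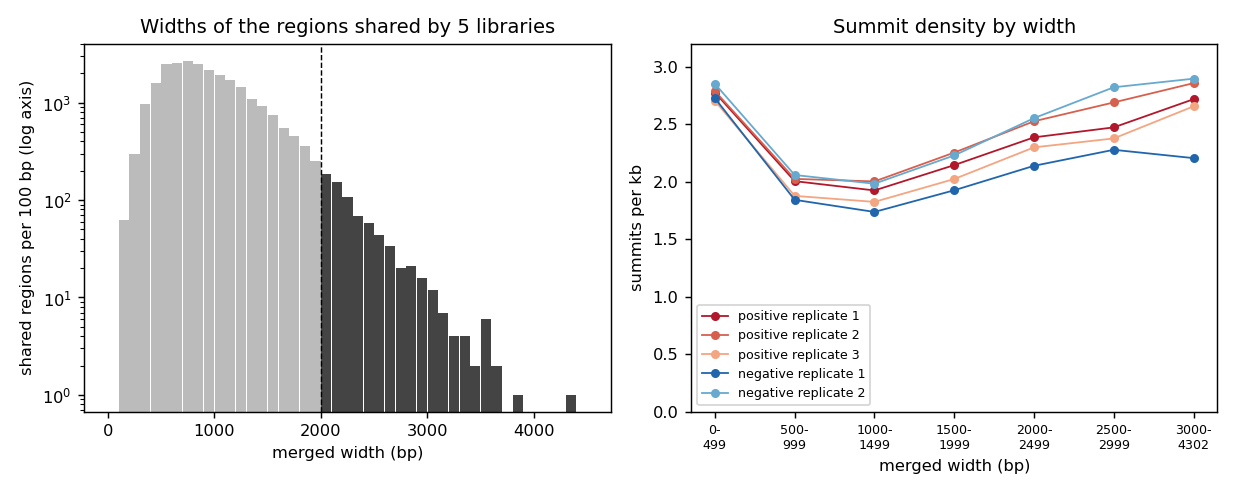
Left, number of regions listed in all 5 libraries per 100 bp of merged width (log axis), with regions of 2000 bp or more in dark grey. Right, summits per kb of region by class of merged width (bp), 1 line per library. The counts fall smoothly through 2000 bp, and in each library the summit density rises from the class of 1000 to 1499 bp to the class of 2500 to 2999 bp.

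Merging across libraries made part of the width. A single interval of 2000 bp or more was listed in every library for 114 of the 746 regions and in no library for 130. It was listed in 1, 2, 3 or 4 libraries for 220, 137, 86 and 59 regions. In positive replicates 1, 2 and 3 there were 334, 249 and 213 regions with such an interval, and in negative replicates 1 and 2 there were 298 and 464. Negative replicate 2, the longest list, thus gave more wide intervals than any other library. When the intervals of each population were merged alone, 371 regions reached 2000 bp in both populations. From the positive libraries only there were 127, from the negative libraries only 181, and from neither 67. This sets 3 merged libraries against 2, and 1 of the 2 is negative replicate 2, so the counts do not compare the populations. Most broad regions had exactly 1 of the kept intervals of a given library, though it did not always span the region. Exactly 1 interval was found in 76.3% to 83.4% of the regions in the positive libraries and in 81.0% and 90.9% in the negative libraries. The intervals filled on average 83.9%, 78.6% and 76.6% of the merged width in positive replicates 1, 2 and 3 and 81.9% and 89.7% in negative replicates 1 and 2. The means were 79.7% ± 3.79 (SD, n = 3) and 85.8% ± 5.48 (SD, n = 2), a difference of -6.08 percentage points, and the ranges of the groups overlapped. Within the first naming style the difference had the opposite sign, at 2.02 percentage points, and within the second it was -12.1.

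The broad regions held several summits each in every library. The mean number of summits per region was 5.68, 6.04 and 5.48 in positive replicates 1, 2 and 3 and 5.08 and 6.16 in negative replicates 1 and 2. The negative libraries gave the lowest and the highest of the 5 values, and the groups overlapped. Positive libraries averaged 5.73 ± 0.288 summits (SD, n = 3) and negative libraries 5.62 ± 0.764 (SD, n = 2), a difference of 0.11 (two-sided exact permutation test, p = 1, where 3 against 2 libraries cannot give a p under 0.1). The intervals of 1 population can supply the merged width, and wider regions held more summits. The choice of regions thus bears on these numbers, and the test cannot decide whether the populations differ. The sign of the difference was reversed without negative replicate 1 (-0.429) and without positive replicate 2 (-0.0534). Within the first naming style it was 0.599 and within the second -0.401. Over the 746 regions the mean of the 5 libraries ran from 1.8 to 12 summits, with a median of 5.6. At least 2 summits in every library were found in 724 regions, at least 3 in 630 and at least 5 in 265. The remaining 22 regions had a single summit in at least 1 library, so the description as multi-summit held for 724 of 746 regions. The number was rarely fixed. It was the same in all 5 libraries in 7 regions only, and its range over the libraries had a median of 3 and a maximum of 9 summits.

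**Figure D2:**
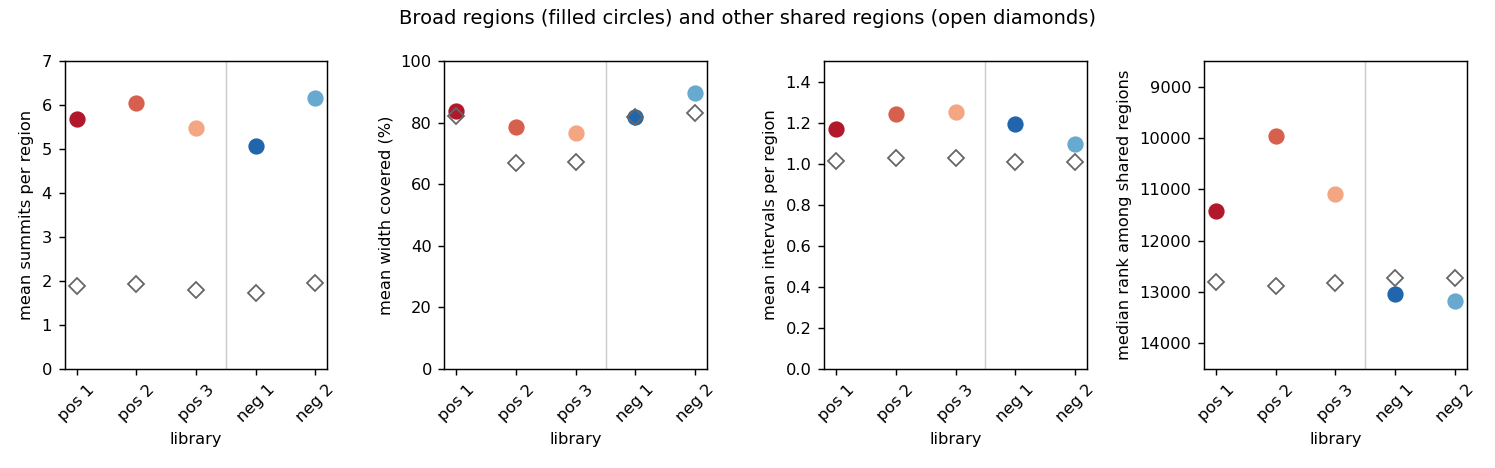
Values per library (pos, positive; neg, negative; numbers are replicates) for the 746 broad regions (filled circles) and the 24749 narrower shared regions (open diamonds). Panels from left to right show mean summits per region, mean percentage of the merged width covered by intervals, mean intervals per region, and median rank of the leading summit among the 25495 shared regions, where a smaller number is stronger and is plotted higher. In the last panel the 3 positive libraries (9956 to 11416) lie above both negative libraries (13047 and 13185) for broad regions.

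Broad regions were also denser in summits per unit of length. They held 2.43, 2.59 and 2.34 summits per kb in positive replicates 1, 2 and 3 and 2.17 and 2.64 in negative replicates 1 and 2. The narrower shared regions held 1.86 to 2.10 per kb, and in each library the broad regions had the higher density. Density is bound to width for the narrowest regions, which hold at least 1 summit however short they are, and was 2.77 per kb on average in regions under 500 bp. As a mean of the 5 libraries, density was 1.96 per kb at 500 to 999 bp and 1.90 at 1000 to 1499 bp. From there it rose through 2.38 at 2000 to 2499 bp to 2.67 at 3000 bp and above. Across the 746 regions, width and mean number of summits were correlated (Pearson's r = 0.64, Spearman's rho = 0.51). These points share their libraries, and a wider region has more room for summits, so the values are a description.

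Neighbouring summits of one library lay well under 1 kb apart in most cases. The median distance was 265, 238 and 264 bp in positive replicates 1, 2 and 3 and 297 and 245.5 bp in negative replicates 1 and 2. In bins of 20 bp the most frequent distance was centred on 150 bp in 4 libraries and on 130 bp in positive replicate 2, followed by a long tail, and 5% of distances were under 99.1 to 118 bp. The positive and negative means of 256 and 271 bp differed by less than the spread of the libraries (two-sided exact permutation test, p = 0.6). Summits were spread over the body of the regions. The density was 2.25 to 3.15 summits per kb over the 5 libraries in all bins centred up to 650 bp from the centre, and 1.10 to 2.16 per kb in the bins centred 1050 bp from it. The leading summit, the one of highest fold enrichment, lay in the middle 50% of the width in 66.0% to 69.0% of broad regions, against 87.7% to 89.5% of narrower shared regions. Broad regions also had less of a single dominant summit. The leading summit exceeded the second by a median ratio of 1.17 to 1.22, against 1.32 to 1.43 in the narrower shared regions with at least 2 summits. A ratio over 2 was seen in 61 to 96 broad regions per library, of 736 to 744 with at least 2 summits, and in 20.1% to 28.2% of the narrower ones. With more summits the gap between the first and the second is smaller by construction, so these ratios describe the regions and test nothing.

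**Figure D3:**
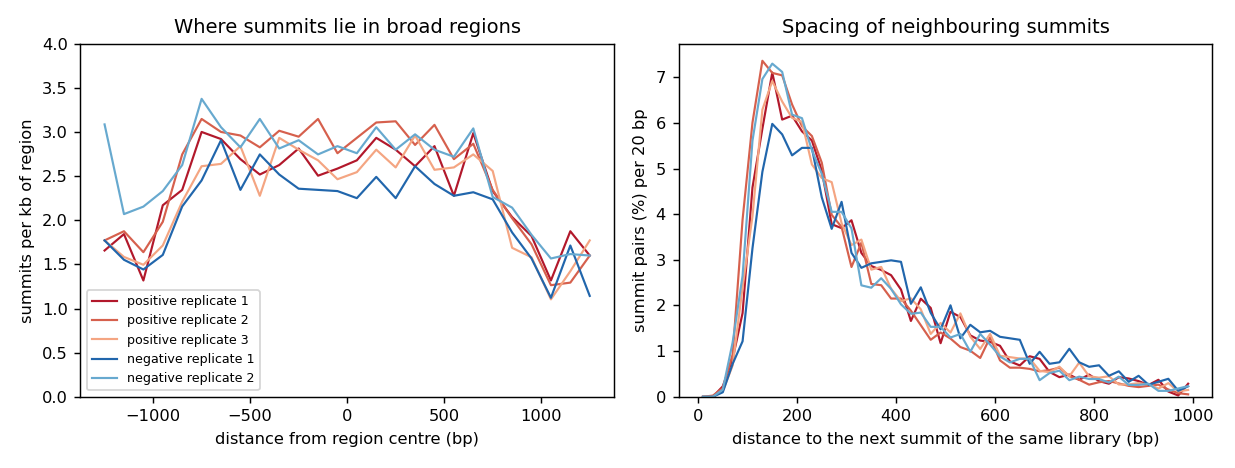
Left, summits per kb of broad region by distance from the region centre (bp, bins of 100 bp), 1 line per library. The outermost bins rest on few regions. Right, percentage of neighbouring summit pairs of the same library by their distance (bp, bins of 20 bp). All 5 libraries show a plateau around the centre and most frequent spacings near 150 bp.

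The widest region lay on chromosome 3 from 1910762 to 1915063 (4302 bp, galGal5 coordinates as for all positions given here). It held 13, 9 and 7 summits in positive replicates 1, 2 and 3 and 6 and 8 in negative replicates 1 and 2. Its leading summit fell 271 to 322 bp to the right of the centre in all 5 libraries, with fold enrichments of 5.11 to 5.58, while no single interval was wider than 2633 bp. The libraries thus shared the leading position of a region whose full width came from several intervals. The second, on chromosome 12 from 7915442 to 7919305 (3864 bp), had 12, 7, 9, 7 and 15 summits in the same order of libraries. Its leading summit moved between -1019 and 999 bp from the centre, so this region had no fixed strongest point. The third, on chromosome 4 from 29812809 to 29816477 (3669 bp), was the one of the 5 widest that every library listed as a single wide interval, of 3572 to 3626 bp. It held 12, 11 and 12 summits in the positive libraries and 9 and 11 in the negative libraries, and its leading summit lay 1056 to 1214 bp to the left of the centre in all 5. The fourth, on chromosome 3 from 22751962 to 22755561, held 6 to 11 summits. The fifth, on chromosome 18 from 10711398 to 10714973, held 10, 11 and 12 summits in positive and 10 and 14 in negative libraries.

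The most summits were found on chromosome 2 from 61968575 to 61972015 (3441 bp), with a mean of 12. Positive replicate 2 listed 16 summits there and the other 4 libraries listed 11 each. The regions on chromosomes 18 and 4 named above had means of 11.4 and 11. Of the other two of the 5 regions with most summits, the one on chromosome 2 from 91579 to 94463 held 12, 10 and 13 summits in positive and 10 and 12 in negative libraries within 2885 bp. The one on chromosome 3 from 3828879 to 3831651 held 12, 15 and 11 in positive and 6 and 13 in negative libraries, with its leading summit 88 to 128 bp from the centre in all 5. None of the 5 had a summit number that separated the groups.

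**Figure D4:**
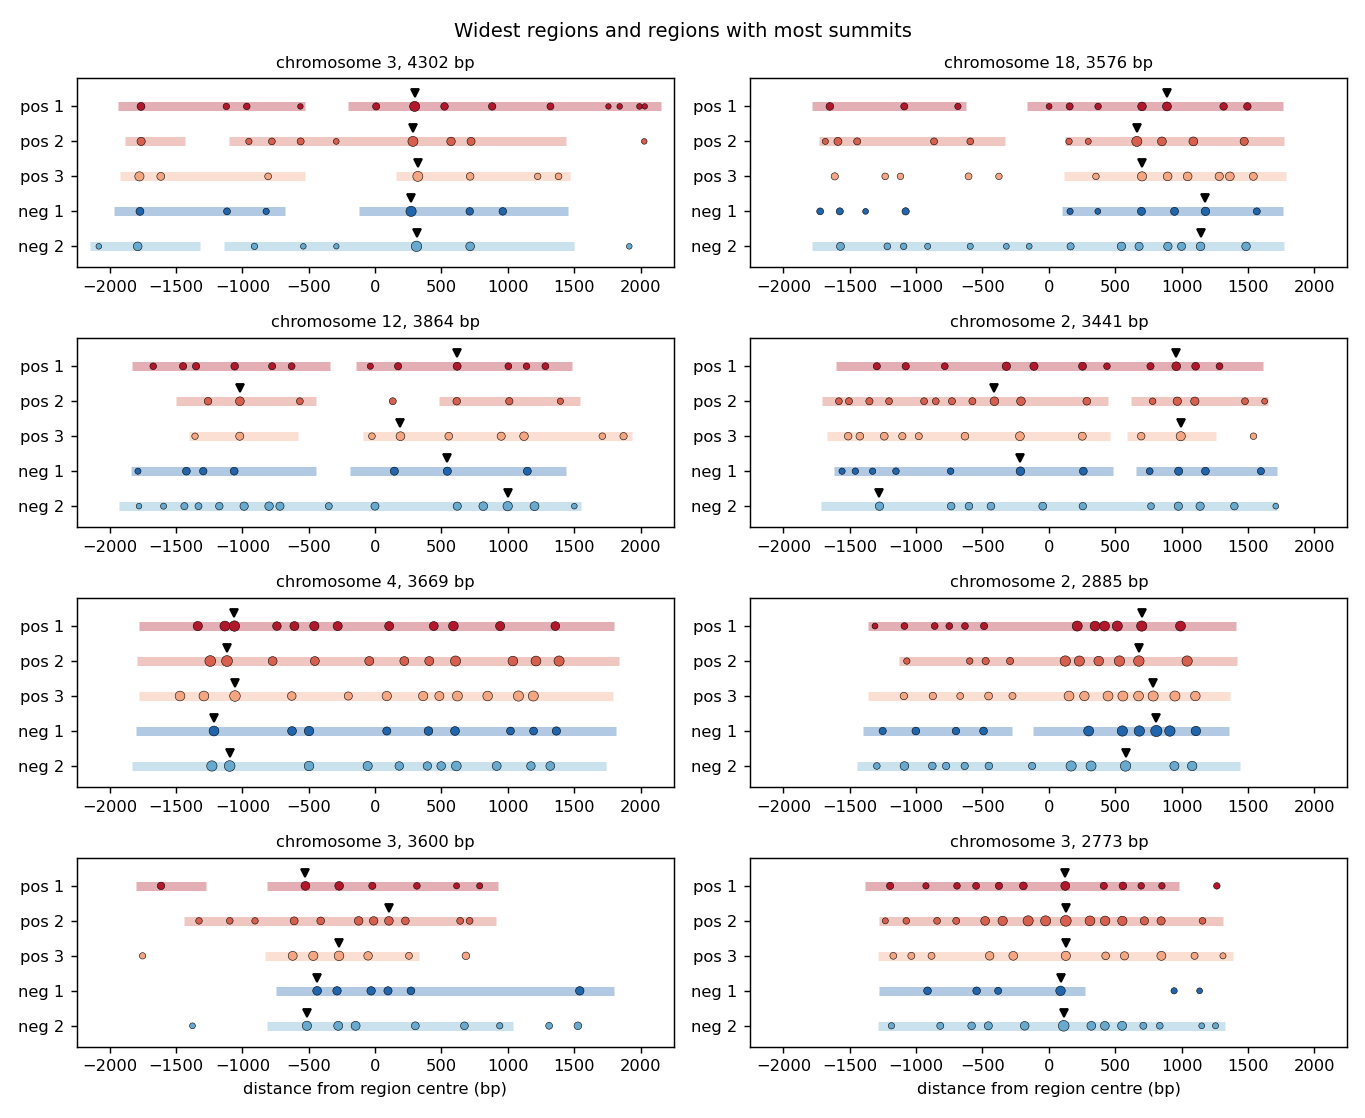
Maps of the 8 regions that are among the 5 widest or the 5 with most summits, with distance from the region centre (bp) on the horizontal axis and 1 row per library. Bars are the intervals among the strongest 50000 of the library, circles are all listed summits with area in proportion to fold enrichment, and the triangle marks the leading summit. In the region of 3669 bp on chromosome 4 a single bar spans nearly the whole width in every library.

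By fold enrichment, which was also used to choose them, broad regions were of medium strength. Of the 746, 0 to 3 per library were among the 1000 strongest intervals, against 882 to 912 of the 24749 narrower shared regions. By -log10 p the broad regions stood higher, with median ranks of 6519 to 8076 where the median of all shared regions is 12748. The strongest by mean rank lay on chromosome 4 from 43595252 to 43597529 (2278 bp), which ranked 997, 1589 and 1016 in positive replicates 1, 2 and 3 and 1843 and 2602 in negative replicates 1 and 2. Its leading summit had fold enrichments of 11.2 to 13.6 over the background of each library and lay 234 to 258 bp to the left of the centre in all 5. It held 2, 4, 1, 2 and 6 summits, few for its width. The next were on chromosome 14 from 9107112 to 9109320, on chromosome 2 from 11806741 to 11808743 and on chromosome 4 from 66643723 to 66645740 and from 30830067 to 30832454, with ranks of 800 to 4147 and 2 to 6 summits. In each of these 5 strongest regions the number of summits was low. Over all 746 regions, those weaker by fold enrichment had more summits (Spearman's rho of mean rank and mean summits 0.41). This is a description across regions that share their libraries.

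The place of the broad regions in the ranking of each sorted population is a description, since the same fold enrichments chose the members. Fold enrichments are not normalized between lists and the lists differ in length, so ranks were taken among the 25495 regions that all 5 lists share, by the fold enrichment of the leading summit. Broad regions had a median rank of 11416 in positive replicate 1, 9956 in replicate 2, 11093 in replicate 3, and 13047 and 13185 in negative replicates 1 and 2, where a smaller number is stronger and the median of all shared regions is 12748. All 3 positive libraries ranked the broad regions above the median of the shared regions and both negative libraries below it. The means were 10822 ± 767 (SD, n = 3) and 13116 ± 97.6 (SD, n = 2), a difference of -2294 ranks, which was not tested. It was -1631 within the first naming style, -2660 within the second, and between -2678 and -2063 when each library was left out in turn. The narrower shared regions, which fill nearly all of the same ranking, had medians of 12797 to 12883 in positive and 12727 and 12734 in negative libraries.

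The size of this difference depended on the measure of strength. Ranked by -log10 p in place of fold enrichment, the same regions had medians of 7279, 6519 and 7260 in positive and 8076 and 7165 in negative libraries. The groups then overlapped and the difference was -601.5 ranks. By region, 311 of the 746 broad regions (41.7%) ranked higher in every positive than in every negative library by fold enrichment, against a background of 23.3% of all shared regions. The opposite order was found in 46 (6.17%), against a background of 21.3%. Of 685 regions built without negative replicate 1, 391 ranked higher in the positive libraries and 75 in the negative library. Of 631 regions built without negative replicate 2, these were 320 and 93. With fewer libraries the definition is easier to meet, and shares over all shared regions were not computed for these runs. By -log10 p the counts were 170 (22.8%) and 88 (11.8%), where all shared regions gave 21.8% and 21.9%. These counts describe the chosen regions, and nothing is read from their distance to the background. The regions below the width limit and at least 1500 bp wide numbered 2360, of which 679 (28.8%) and 257 (10.9%) ranked higher by fold enrichment and 439 and 377 by -log10 p. Among the 114 regions with a single interval of 2000 bp or more in every library, 72 (63.2%) ranked higher in the positive libraries and 1 (0.877%) in the negative libraries by fold enrichment. By -log10 p these were 31 (27.2%) and 5 (4.39%). Differences in fragment length, background or depth between libraries could not be measured from the lists, and their part in these ranks was not tested.

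The regions of largest separation in rank, chosen after their values were seen, show the scale. On chromosome 1 from 191770818 to 191773009 the leading summit ranked 4296, 4827 and 5039 among the shared regions in positive replicates 1, 2 and 3 and 19339 and 24504 in negative replicates 1 and 2. Its fold enrichments were 8.73, 8.89 and 9.54 in positive and 4.42 and 3.55 in negative libraries. In the other direction, the region on chromosome 1 from 182804552 to 182806751 ranked 23146, 23874 and 19179 in positive and 7186 and 7914 in negative libraries. Both are listed in every library by the rule that chose them.

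The number of summits separated the groups in few broad regions. More summits in every positive than in every negative library were found in 62 of 746 (8.31%), against 3.55% of all shared regions. The opposite was found in 50 (6.70%), against 3.58%. A region with few summits has little room for such a difference. Among shared regions with a mean of 4 or more summits the background was 6.35% and 4.96%, and the shares in the 665 broad regions of this kind were 7.52% and 6.77%. That background includes the broad regions. In the 1129 narrower shared regions of this kind the shares were 5.67% and 3.90%, below those of the broad regions in both directions. Nothing is read from this, since the choice by width bears on summit numbers. No region can pass a test of 3 against 2 libraries. The counts changed when single libraries were left out and the regions were built anew. Without negative replicate 2, 194 of 631 regions had more summits in every positive library. Without negative replicate 1, 188 of 685 had more in the remaining negative library and 105 in every positive library. Without positive replicate 3, 106 of 729 had more in the remaining positive libraries. Without positive replicates 1 or 2, 78 of 648 and 80 of 711 had more in every negative library. With fewer libraries the definition is easier to meet, and shares over all shared regions were not computed for these runs.

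The largest gap in favour of the positive libraries was on chromosome 10 from 6192327 to 6194832 (2506 bp). It held 7, 10 and 8 summits in positive replicates 1, 2 and 3 and 5 and 3 in negative replicates 1 and 2. The leading summit, 640 to 673 bp right of the centre, was the same in all 5 libraries, and the added summits were weaker ones to its left. The second, on chromosome 9 from 13471310 to 13473430 (2121 bp), held 8, 8 and 9 against 3 and 6 summits, and 2 of its summit positions were found in the 3 positive libraries alone. The third, on chromosome 1 from 48118360 to 48121872 (3513 bp), held 9, 8 and 8 against 6 and 5. The remaining 2, on chromosome 10 from 20034910 to 20037465 and on chromosome 7 from 22070982 to 22073213, held 6 to 8 summits in positive and 3 to 5 in negative libraries.

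The largest gap in favour of the negative libraries was on chromosome 1 from 144395626 to 144397740 (2115 bp). It held 1, 2 and 2 summits in positive replicates 1, 2 and 3 and 7 and 6 in negative replicates 1 and 2. Its leading summit also differed, at 340 to 354 bp right of the centre in the positive libraries and 512 and 528 bp left of it in the negative libraries. On chromosome 5 from 22915929 to 22918483 (2555 bp) the numbers were 3, 5 and 4 against 8 and 10. The negative libraries covered this region with single intervals of 2550 and 2554 bp, while no positive interval was wider than 1419 bp. The region on chromosome 21 from 1417923 to 1420349 held 4, 4 and 4 against 7 and 10 summits, with most of the added ones on its left side. Here the positive libraries ranked the leading summit higher (14102 to 17855, against 33427 and 30306 among the strongest 50000), so a larger number of summits did not go with greater strength. On chromosome 3 from 58648706 to 58650860 both measures went the same way. It held 1, 2 and 1 against 6 and 5 summits, at ranks of 34252 to 43115 against 15104 and 13844. The fifth, on chromosome 2 from 14929800 to 14932791, held 5, 5 and 5 against 8 and 10, and 3 of its summit positions were found in both negative libraries alone. In these regions on chromosomes 5, 21, 3 and 2, intervals covered at most 67.4% of the merged width in each positive library. In each negative library they covered at least 81.3%. The negative intervals thus supplied much of the width by which these regions were chosen, so their summit numbers are a description only.

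The leading summit kept its position in many broad regions, though in a smaller share than in all shared regions with at least 2 summits. In 325 of the 724 regions with at least 2 summits in every library, the leading summits of all 5 libraries lay within 150 bp (44.9%, against 50.2% of all shared regions with at least 2 summits). Broad regions hold more summits over a greater width, so these shares are not compared like with like. A change between the groups was defined by leading summits within 150 bp of each other inside each group and at least 300 bp apart between groups. It was found in 23 of the 724 (3.18%), the same as the background of 3.17%. In these 23 regions the positions of the 2 groups lay 439 to 2002 bp apart, with a median of 1018 bp. In 18 of the 23, every library listed a summit at both positions, so the listed order of 2 shared summits differed. In 5 a position lacked a summit in at least 1 library. Some of these orders rest on near ties, such as 5.16 against 5.16 in negative replicate 2 on chromosome 7 from 19853214 to 19855438. As the share was that of the background, the 23 regions are a description and nothing is read from their number. The first by mean rank, on chromosome 4 from 24195744 to 24198057, led at a mean of 776 bp right of the centre in the positive libraries, with fold enrichments of 5.77, 7.84 and 8.05. It led at a mean of 430 bp left of the centre in the negative libraries, with 7.74 and 7.15. Positive replicates 1 and 3 had no summit within 150 bp of the negative position, nor negative replicate 2 one near the positive position. The count of such changes was 38, 39 and 48 in regions built anew without positive replicate 1, negative replicate 1 or negative replicate 2. This definition is easier to meet with fewer libraries. In the second, on chromosome 1 from 71192917 to 71195215, the positive leading position had fold enrichments of 7.29, 7.33 and 6.41 against 5.99, 5.88 and 6.34 at the negative position. In the negative libraries these were 5.38 and 6.87 against 7.46 and 7.08. The differences were small in positive replicate 3 and in negative replicate 2. The third, on chromosome 5 from 8751973 to 8754025, also had small differences, at 7.19 against 7.06 in positive replicate 2 and 7.20 against 7.48 in negative replicate 2. The fourth and the fifth, on chromosome 2 from 78434166 to 78436361 and on chromosome 8 from 24709846 to 24712045, had clearer orders. On chromosome 8 the positive position gave 5.59, 6.07 and 6.88 against 3.63, 4.26 and 4.21, and in the negative libraries 4.52 and 4.32 against 5.99 and 7.96.

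**Figure D5:**
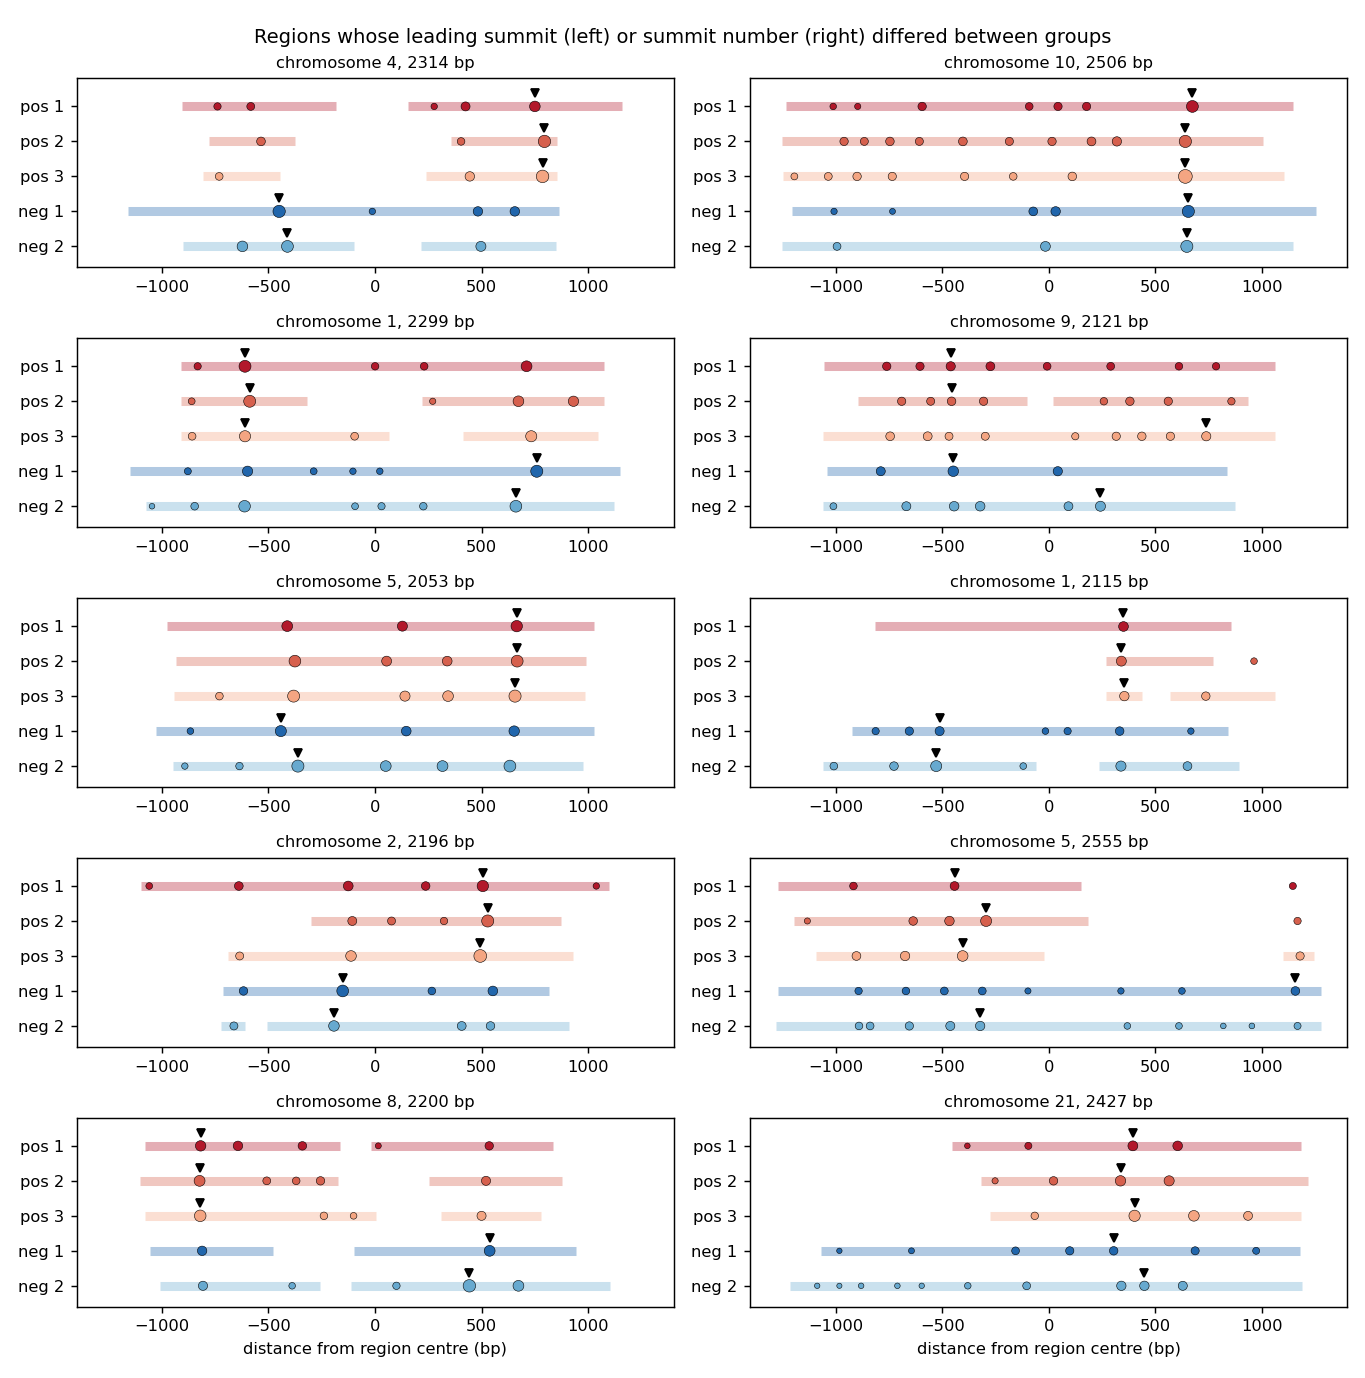
Maps of regions in which the groups differed, with distance from the region centre (bp) on the horizontal axis, 1 row per library, and bars, circles and triangles for the intervals among the strongest 50000, all listed summits (area in proportion to fold enrichment) and the leading summit. Left, the 5 strongest regions whose leading summit differed. Right, the 2 with the largest gap in summit number in favour of positive libraries (chromosomes 10 and 9) and the 3 in favour of negative libraries (chromosomes 1, 5 and 21).

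Summit positions were compared between libraries to ask how well the inner structure of broad regions repeated. Of the summits of one library in broad regions, 59.4% to 72.9% had a summit of a given other library within 100 bp. Windows of 100 bp around the summits of the other library covered 41.1% to 47.9% of the base pairs of these regions. In the narrower shared regions the matched share was 70.2% to 80.5% and the windows covered 35.8% to 39.3%. The inner positions of broad regions thus repeated less closely, with median distances to the nearest summit of 43 to 71 bp against 26 to 40 bp. The narrower shared regions held 1.73 to 1.95 summits on average, and their width bounds the distance. This comparison is therefore a description that follows in part from the width rule. Pairs of libraries within a group matched in 68.0% of summits on average (62.6% to 72.9%, 8 ordered pairs) and pairs between groups in 66.3% (59.4% to 71.2%, 12 ordered pairs). The difference of 1.71 percentage points was within the spread of the pairs, whose ranges overlapped (exact permutation test, one-sided, p = 0.2). In the narrower shared regions the difference was 1.65 percentage points (exact permutation test, one-sided, p = 0.1, the smallest possible). Naming style went with the match too. Between groups, pairs of one style matched in 67.7% and pairs of different styles in 64.8%. Within groups, the values were 69.7% and 67.4%. Its part in the agreement was not tested.

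Summits of the 5 libraries at most 100 bp from the next were joined into 5726 summit positions in broad regions. Of these, 1811 (31.6%) held a summit of every library, or 2.43 per region on average and at most 6, and 328 regions had 3 or more. A single library gave 1537 positions (26.8%). In the narrower shared regions 43.2% of positions were common to all libraries. In 7 broad regions no position was common to all 5. Common positions had median fold enrichments of 3.84 to 4.49 in the 5 libraries, and those of a single library 2.28 to 3.02, so the repeated positions were also the stronger ones. Joined positions spanned a median of 116 bp where all libraries took part, and up to 1006 bp where dense summits linked up.

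Few summit positions inside broad regions belonged to 1 population. There were 110 positions with a summit in all 3 positive and in no negative library (1.92%, and 195 to 322 positions when each library was left out), in 101 regions (13.5%, against 3.51% of all shared regions). There were 130 positions with a summit in both negative and in no positive library (2.27%, and 192 to 552 when each library was left out), in 105 regions (14.1%, against 4.89% of all shared regions). Both kinds occurred together in 13 regions. Broad regions have more positions each, and the share per position in the narrower shared regions was 1.27% and 1.88%. Positive-only positions had median fold enrichments of 3.16 to 3.48 and negative-only positions 2.22 and 2.33. The negative-only positions were thus weak, below the median of 2.51 and near that of 2.28 for positions found in a single library (negative replicates 1 and 2). They lay further from the centre, at a median of 31.4% of the width, than positive-only positions (25.7%) and common positions (21.0%). Positions of a single library lay at 28.5%. The narrower shared regions had the same order, at 30.3%, 24.4% and 11.3%. The counts need 3 libraries in one direction and 2 in the other, and so cannot say in which population such positions were more frequent. For the same reason the strength and place of positive-only and negative-only positions are not compared like with like.

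Broad regions made up a similar share of the shared regions across classes of chromosome number, but not across single chromosomes. They made up 2.94% of the shared regions on chromosomes 1 to 5 (446 of 15175), 3.09% on chromosomes 6 to 10 (135 of 4374) and 2.77% on chromosome 11 and above (165 of 5946), which include the small, gene-dense microchromosomes. Among chromosomes with more than 100 shared regions the share ran from 0.418% on chromosome 24 (1 of 239) to 4.28% on chromosome 12 (28 of 654). It was also low on chromosomes 21 (2 of 273), 22 (1 of 118), 25 (1 of 108) and 28 (2 of 209), at 0.733% to 0.957%. Broad regions were not more crowded than other shared regions. Within 50 kb on either side there was a median of 8 other regions for both sets, of which a median of 3 were listed in all 5 libraries. A second broad region lay within 50 kb of the centre of 11.4% of broad regions, and a broad region lay that near to 9.01% of narrower shared regions.

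Broad regions within 50 kb of each other formed 42 runs with 89 members. The run with most members held 5 broad regions in 62.2 kb of chromosome 1, from 48092967 to 48155120. Its members were 2543, 3063, 3513, 2265 and 2003 bp wide, from left to right, and include the third region named above for more summits in positive libraries. The fourth member, from 48139985 to 48142249, had ranks of 11689, 11831 and 9059 in positive and 22615 and 24641 in negative libraries among the strongest 50000, with 6 or 7 summits in each. The last member ranked 8599 to 11264 in positive and 9623 and 11011 in negative libraries, so members of 1 run did not share the difference between groups. The next by number of members, of 3 regions each, lay on chromosome 3 from 61307039 to 61381441 (74.4 kb) and from 96862372 to 96932462 (70.1 kb). In the first of them the region from 61379069 to 61381441 ranked 1325, 1656 and 1319 in positive and 7722 and 9557 in negative libraries, with 4, 4 and 4 against 6 and 5 summits. Its neighbour from 61353744 to 61355764 ranked 23121 to 40456 in positive and 26769 and 29831 in negative libraries, where the groups overlapped.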

How the data were processed

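ATAC-seq peak lists of 5 libraries (3 positive, 2 negative) were used, grouped by sample title. Per the submitters' processing notes, Bowtie2, MACS2 and the build galGal5 were used; versions, duplicate handling and Tn5 shift are not given in the sources used here. Each file lists 1 library, so intervals were not called on pooled replicates. The deposited columns hold a ratio, the fold enrichment over local background, with −log10 of p and of q for each summit, and an integer score that was not used. The smallest deposited −log10 q was 1.30, a q-value of 0.05. Fold and p describe or rank summits within a list.

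Starts are given 1-based. Summits are all listed rows whose summit lies in a region. Ties in rank were broken by position. Python 3.11.15, numpy 2.4.6 and pandas 2.3.3 were used, and the steps were tested on simulated lists. Summit number, spacing and agreement, one value per library or pair, were compared by exact permutation. The planned tests of rank and covered width are not reported, since the choice of regions used these values. Alternatives covered ranking, list length, width, chromosomes, overlap, summit threshold and matching distances, left-out libraries, naming style and a replicate block. Named regions are the 5 widest, the 5 with most summits, the 5 strongest, the 5 of largest gap in summit number each way, the 5 strongest with differing leading summit, the 3 runs with most members and the 3 on each side of the width limit. The members, lists and tests were chosen with earlier results of these data known. The ranks among shared regions, the background of 4 or more summits, the regions of largest separation in rank and the merge within each population were added after the data were seen. The test of spacing was not planned. The planned counts of marker genes and printed sequences need the galGal5 genome or its annotation and are not analysed here.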

Additional observations from a re-analysis of the deposited data

How the results depend on the processing

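The difference between the group means of median rank, lower (stronger) in positive libraries, kept its sign in every alternative run. The kept sign is a description, since strength ranks chose the regions and the runs drew on the same lists. The libraries did not separate in each run. By −log10 p in the same 746 regions, negative replicate 2 (7165) ranked stronger than positive replicates 1 (7278.5) and 3 (7259.5). Ranked by −log10 p, the counts of regions higher in every positive or negative library were 179 and 88 (783 regions), or 170 and 88 in the same 746 regions. With 20000 intervals per list there were 398 broad regions, of which 37 and 21 had more summits in every positive or negative library, 5 changed their leading summit, and 160 and 11 ranked higher; 918 summit positions were common, 64 positive-only and 46 negative-only. From 1500 bp these values were 3106, 222, 169, 98, 990, 303, 5641, 318 and 393. From 3000 bp they were 39, 7, 1, 2, 18, 1, 142, 5 and 11. The 2 other width limits leave the shared regions as they were. Their background is thus 3.55% and 3.58% for more summits and 23.3% and 21.3% for rank. Shares over all shared regions were not computed for 20000 intervals per list or for the 783 regions. Nothing is read from these counts. Among regions with one wide interval in every library, 72 and 1 ranked higher by fold and 31 and 5 by −log10 p.

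Leaving out each library in turn gave 631 to 729 broad regions, 80 to 194 with more summits in positive and 60 to 188 in negative libraries, 26 to 48 changed leading summits, 195 to 322 positive-only and 192 to 552 negative-only positions, and 320 to 391 and 44 to 93 regions ranked higher. Differences ran from -0.429 to 0.736 summits, reversed without negative replicate 1 and without positive replicate 2 (-0.0534). Fewer libraries make these definitions easier to meet. Each of these runs built its regions anew, and shares over all shared regions were not computed for them. Matching at 200 bp left 30 and 45 group-only positions.

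Groups share replicate numbers 1 and 2, which cannot be taken to pair the libraries (correlation of summit differences 0.17 over regions). With a replicate block, 183 and 109 regions had more summits in positive or negative libraries. In the same order, 203 and 181 positions were group-only, and 457 and 87 regions ranked higher. For agreement the block used another statistic, pairs within a group minus pairs of the same replicate number, at -0.665 percentage points. Those pairs of the same number share a naming style, while the pairs within a group here do not. The value is thus no rerun of the difference within minus between groups. Within the first naming style, with 1 library per group, 385 and 209 regions had more summits, 130 changed leading summit, 1021 and 738 positions were group-only, 511 and 235 ranked higher, and the differences in covered width and intervals reversed to 2.02 and -0.0228. Within the second these were 164, 259, 72, 368, 734, 502 and 100, and the summit difference was -0.401. With so few libraries these definitions are easily met. Shares over all shared regions were not computed for the naming styles or the replicate block, so nothing is read from these counts. Apart from what an alternative sets by construction, causes were not tested. Without read counts, depth could not be matched between libraries, which limits what weak summits show. The planned counts of marker genes were not run.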

Other observations

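Outside the numbered chromosomes, the same width and presence rule gave 44 broad regions on chromosome Z, of 1527 regions there listed in all 5 libraries, and 5 on unplaced sequences, of 410. Chromosome W and the mitochondrial sequence gave none, and no region there was listed in all 5 libraries. With these sequences included there were 795 broad regions, and the difference in rank among the shared regions was -2370.5, a description with no test.

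The 311 broad regions that ranked higher in every positive library had a median width of 2261 bp, and the 46 that ranked higher in every negative library had one of 2170.5 bp. Of the 311, 22 had more summits in every positive library and 28 had more in every negative library, and of the 46 these were 7 and 4. Over all 746 broad regions the shares were 8.31% and 6.70%, and over all shared regions 3.55% and 3.58%. The mean number of summits in the 311 was 5.65, 6.11 and 5.67 in positive replicates 1, 2 and 3 and 5.31 and 6.29 in negative replicates 1 and 2, so the groups overlapped. On chromosome 11 or above lay 69 of the 311, 5 of the 46 and 91 of the other 389, or 165 of all 746.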
